A study of Mus musculus with 16 samples.

Results

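Among 8 expression arrays of mouse cortical neuron cultures, the 2 arrays titled replicate 1, of 1 Klotho-treated and 1 control sample, were compared with the 6 arrays of replicates 2 to 4, 3 Klotho and 3 control. The series holds 16 arrays in all, the other 8 being of cortical astrocyte cultures. Both sides consist of primary neurons from C57BL/6 cortex at embryonic day 16, kept in Neurobasal medium for 14 days and then given 1 nM of the secreted form of Klotho, a protein made mainly in kidney and choroid plexus, or phosphate-buffered saline for 24 h. The labels name no sorting of cells, so a culture can hold glia and other cells of the dissected cortex, and the labels do not say how many embryos or preparations a sample came from or what the replicate numbers stand for. If the arrays of a group came from 1 culture, the p-values below measure technical spread alone.

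The replicate 1 arrays were selected on their measured expression levels, since the division follows the first principal component of the neuron arrays. Over 25264 probes or genes above background on all 8 arrays, that component held 64.6% of the variance. The Klotho and control arrays of replicate 1 scored 0.60 and 0.62 on it, while the other 6 arrays scored between -0.31 and -0.16. Every difference between replicate 1 and the rest is therefore a description of the values that chose the arrays, and no p is given for it. Tests with p-values are given only for what the choice did not use. These are the effect of Klotho in replicates 2 to 4, its difference between the 2 sides, and the differences among replicates 2, 3 and 4.

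All 8 neuron arrays lay on 1 slide. Replicate 1 occupied slide column 1 in both rows, so replicate number and slide column cannot be told apart, and Klotho and control arrays lay in separate rows, so treatment and row cannot be told apart either. Well above background were 35195 spots on the Klotho and 38541 on the control array of replicate 1, against 34357 to 36751 on the other Klotho and 39712 to 39934 on the other control arrays. Replicate spots of a probe on the control array of replicate 1 had an SD of 0.114 on the log2 scale, against 0.062 to 0.084 on the other 7 arrays, and its part in the results was not tested. Levels below are log2 intensities minus the array's 75th percentile, so 0 is that percentile, and levels of different genes are not compared because each probe has its own response.

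Cultures of this kind mature over weeks. Neurons extend processes, form synapses and add the ion channels and receptors that carry mature firing, while dividing progenitors, glia and microglia make up a share that depends on the dissection, the plating and the medium. Cholesterol is made in the brain itself, through a pathway whose genes are controlled together by the transcription factor SREBP2, which is released to the nucleus when membrane sterol is low. Inhibitory neurons of the cortex come from the ventral forebrain under transcription factors of the Dlx, Nkx and Sp families, and they use GAD enzymes to make GABA and the carrier Slc32a1 to load it into vesicles.

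Replicate 1 differed from the other neuron arrays in both directions under both treatments. Of 27485 probes or genes measured above background on at least 1 side, 860 (3.13%) were at least 1 log2 unit higher in replicate 1 with both arrays above all 6 others, and 1340 (4.88%) were at least 1 unit lower with both below all 6. Among those above background on all 8 arrays, the counts were 657 (2.60%) and 1061 (4.20%), and the median difference over all of them was 0.02. By any size, 28.8% lay above and 27.7% below all 6 other arrays, and every list count below is to be read beside these shares. The replicate 1 difference within Klotho arrays and that within control arrays correlated with r = 0.80 across these 25264, which share arrays of the same slide and are not independent replicates. With another background correction, normexp, the counts over all units were 394 and 635. Without the control or the Klotho array of replicate 1, only 1 replicate 1 array had to lie outside the others. That rule is looser, so counts without either array are not comparable with 860 and 1340 and are not given.

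**Figure D1:**
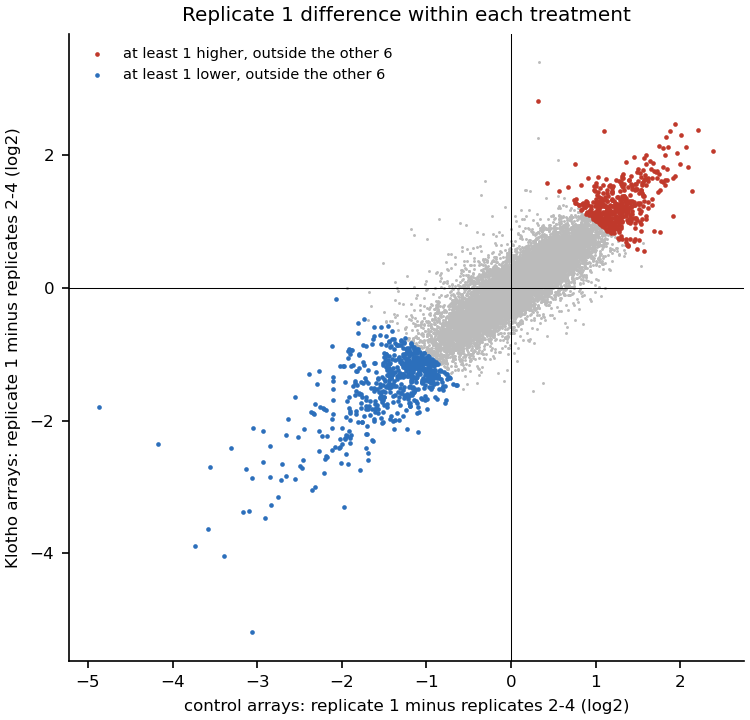
Each point is 1 of 14604 genes with a symbol above background on all 8 neuron arrays. The vertical axis gives replicate 1 minus the mean of replicates 2 to 4 among Klotho arrays and the horizontal axis the same among control arrays, both in log2 units. Genes past the threshold, in red and blue, lie along the diagonal in 2 opposite quadrants.

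The 3 genes named to mark the division carry it with little spread, and their levels are among the values that chose the arrays. On their brightest probes none reached the threshold of 1 log2 unit. Slc32a1, the vesicular GABA carrier, on chromosome 2, stood at 6.71 on the Klotho and 6.70 on the control array of replicate 1, against 5.69, 5.86 and 5.75 on the Klotho and 5.96, 5.92 and 5.94 on the control arrays of replicates 2 to 4. Gad2, a GABA-synthesizing enzyme also on chromosome 2, stood at 3.60 and 3.53 in replicate 1, against 2.88, 2.87 and 2.78 on the other Klotho and 2.74, 2.80 and 2.77 on the other control arrays. The replicate 1 arrays were above all others for both genes, by 0.86 ± 0.08 for Slc32a1 and 0.76 ± 0.07 for Gad2 (difference in log2 units ± SE, 2 arrays against 6). Fgfr1, a fibroblast growth factor receptor on chromosome 8, was lower, at 3.99 and 4.10 in replicate 1, against 4.72, 4.76 and 4.74 on the other Klotho and 4.87, 4.88 and 4.88 on the other control arrays. Its difference was -0.77 ± 0.06 on its brightest probe, and -0.58 and -0.11 on its other 2 probes. A second Slc32a1 probe gave 1.44. In the 8 astrocyte arrays Slc32a1 had a median level of -4.10 and Gad2 of -4.52, so both are neuronal in this series, whereas Fgfr1 was at 6.39 there.

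**Figure D2:**
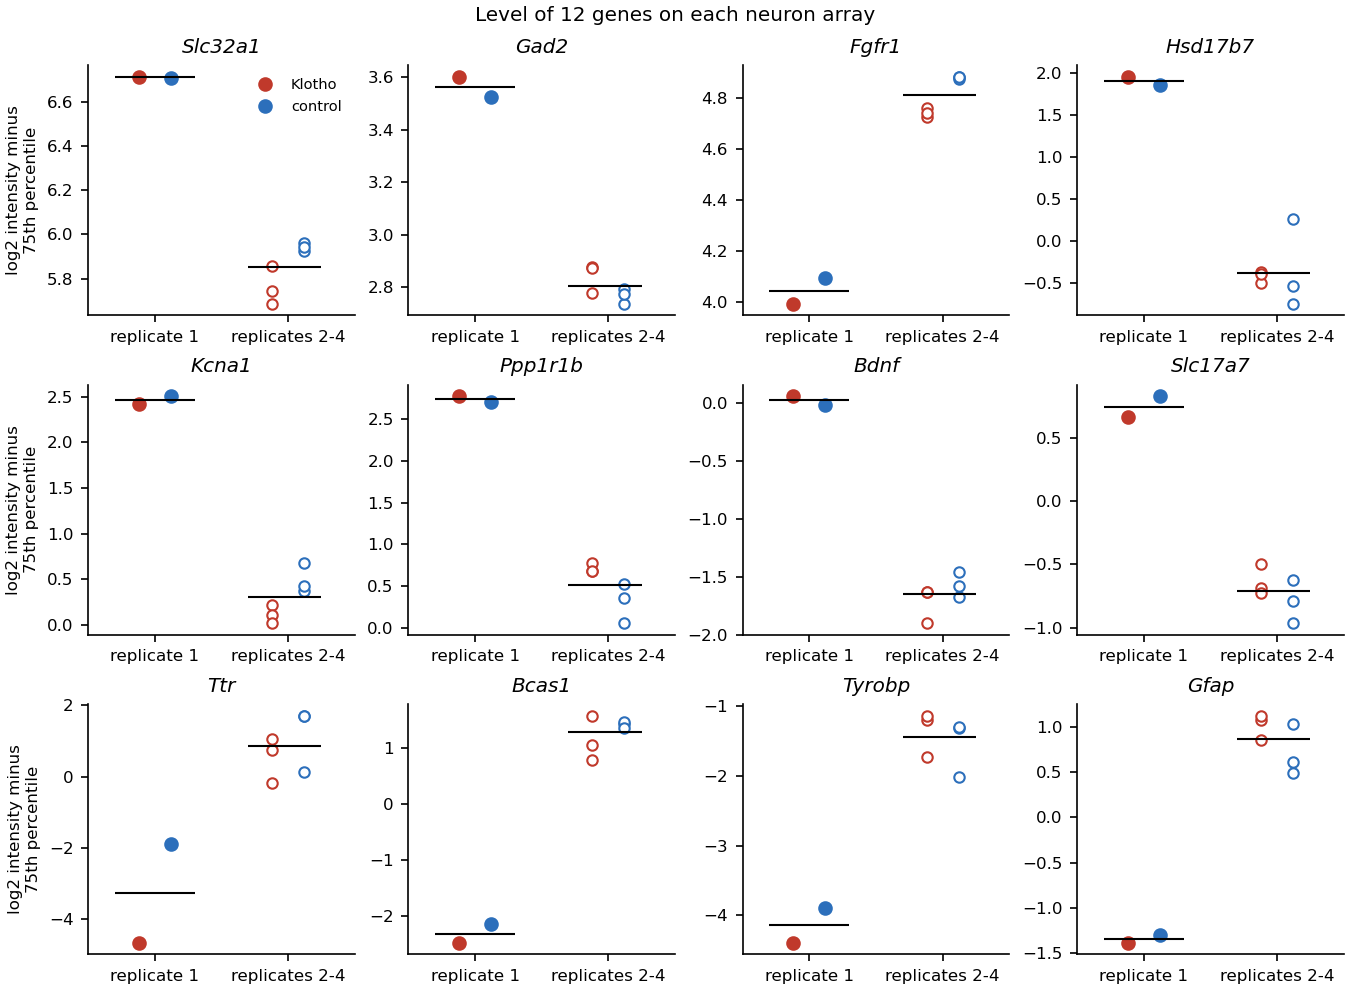
Level of 12 genes on each of the 8 neuron arrays, as log2 intensity minus the array's 75th percentile. Filled points on the left are replicate 1, open points on the right replicates 2 to 4, red is Klotho, blue is control, and bars are means. In each panel both filled points lie outside the range of the 6 open ones.

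The genes whose treatment-centred levels followed Slc32a1 most closely over the 8 arrays were Fgf18, Nsf, Camk2a, Endod1 and Phf24, those closest to Gad2 were Hrh3, Ptpre, Ntf3, Sphkap and Gnal, and those closest to Fgfr1 were Bcar3, Sspn, Csrp1, Kiz and Mllt3. The lowest of these 15 correlations, that of Phf24, was 0.997. With 2 arrays set apart from 6, such correlations are close to 1 for any gene with the same division, and they describe these arrays only. Nsf, which recycles the membrane fusion machinery, was 0.85 ± 0.08 higher in replicate 1, and Csrp1, an actin-associated protein, differed by -1.34 ± 0.07.

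Genes of cholesterol and lipid synthesis were higher in replicate 1. All 25 of the listed sterol and lipid synthesis genes that were above background on all 8 arrays (of 26 listed) lay above every other neuron array in replicate 1, and 16 of them by at least 1 log2 unit, where 2.60% of all such units did. Their median difference was 1.32, beside 0.02 over all units. Hsd17b7, which reduces a sterol ketone, stood at 1.96 on the Klotho and 1.86 on the control array of replicate 1, against -0.75 to 0.26 with a median of -0.45 on the other 6. Its difference of 2.30 ± 0.24 log2 units, a 4.91-fold higher signal, was the largest among genes with a symbol that were higher in replicate 1 and above background on all arrays, and a second probe gave 2.06.

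Other members of the sterol pathway differed by less but never overlapped. Mvd, which makes isopentenyl diphosphate, was 1.93 ± 0.30 higher in replicate 1. Insig1, which holds SREBP in the endoplasmic reticulum and is itself one of its targets, was 1.72 ± 0.20 higher, and Sqle, the squalene epoxidase, 1.61 ± 0.18. Srebf2, the gene of SREBP2, stood at 1.53 and 1.17, against 0.26 to 0.52. The smallest difference in the list was that of Scd2, a fatty acid desaturase, at 0.42 ± 0.07.

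One array of the other side lay between. The control array of replicate 2 had a mean level of 3.02 over the 25 genes, where the arrays of replicate 1 had 3.85 (Klotho) and 3.89 (control) and the remaining 5 arrays 2.40 to 2.54. It was the highest of the 6 for Hsd17b7, at 0.26, and for Mvd, at 2.56. The same array also had the highest mean level of 29 listed cell cycle genes, 1.30, above the 0.88 and 0.92 of replicate 1 and the 0.36 to 0.44 of the others. In the cell cycle list replicate 1 therefore overlapped the other side, with 3 genes above and 1 below all 6 arrays.

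**Figure D3:**
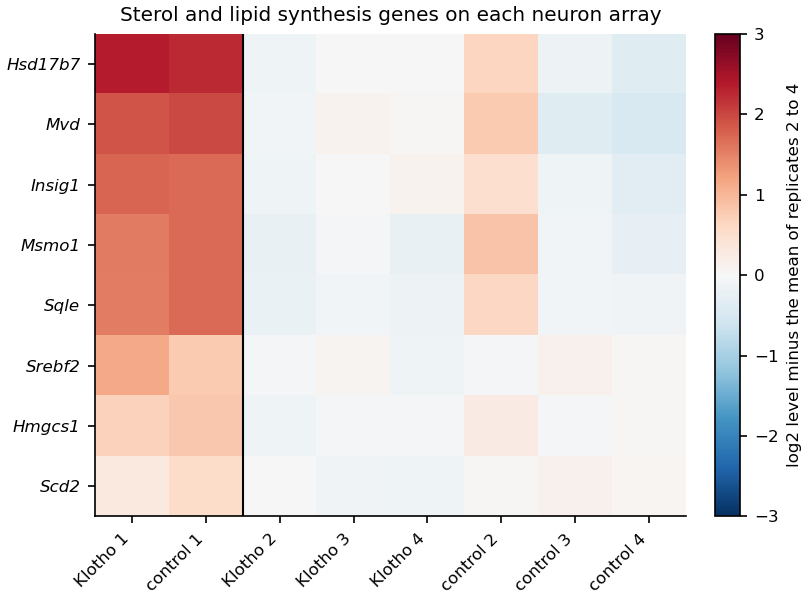
Level of 8 sterol and lipid synthesis genes described in the text on each neuron array, as the log2 difference from the mean of replicates 2 to 4, sorted by the replicate 1 difference. The 2 columns left of the line are replicate 1. The control array of replicate 2 is intermediate for Hsd17b7, Mvd, Insig1, Msmo1 and Sqle.

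Since these genes share a regulator in textbook accounts, the 250 bases before the start of each gene were searched on both strands for its binding sequence, using RefSeq promoters of build GRCm38.p6. Windows were given for 16 of the 26 genes. The letters TCACNCCA, the core of the sterol regulatory element with N for any base, occurred at 3 of them, Hmgcs1, Msmo1 and Srebf2, and in 3.67% of all 32851 windows of this length. The windows below are those 3 and that of Hsd17b7, which had the largest difference and no match, each 5′ to 3′ on the gene's strand with the core, on either strand, in capitals. They are chr13:119690101-119690350 (+), chr8:64733579-64733828 (-), chr15:82147019-82147268 (+) and chr1:169969206-169969455 (-).
Hmgcs1: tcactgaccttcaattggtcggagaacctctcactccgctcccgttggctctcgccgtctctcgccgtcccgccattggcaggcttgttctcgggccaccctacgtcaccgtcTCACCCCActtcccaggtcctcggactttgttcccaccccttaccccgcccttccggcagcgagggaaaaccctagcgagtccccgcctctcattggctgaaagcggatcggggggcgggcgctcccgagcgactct
Msmo1: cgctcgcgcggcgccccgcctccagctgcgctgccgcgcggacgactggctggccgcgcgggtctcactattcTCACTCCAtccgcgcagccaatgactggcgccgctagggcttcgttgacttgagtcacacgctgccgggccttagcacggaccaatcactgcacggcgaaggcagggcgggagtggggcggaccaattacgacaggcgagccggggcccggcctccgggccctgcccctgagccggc
Srebf2: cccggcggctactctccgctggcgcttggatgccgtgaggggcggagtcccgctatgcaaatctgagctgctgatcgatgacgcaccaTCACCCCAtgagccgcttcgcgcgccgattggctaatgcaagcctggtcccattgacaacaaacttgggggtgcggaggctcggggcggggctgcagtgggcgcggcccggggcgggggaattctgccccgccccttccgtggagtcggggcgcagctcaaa
Hsd17b7: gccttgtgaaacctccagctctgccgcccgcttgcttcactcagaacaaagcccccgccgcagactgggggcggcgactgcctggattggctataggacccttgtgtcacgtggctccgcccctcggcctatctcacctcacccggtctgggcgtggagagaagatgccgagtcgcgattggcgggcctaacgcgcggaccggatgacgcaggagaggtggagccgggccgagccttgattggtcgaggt
The 3 genes with the core differed by 0.75 ± 0.09 (Hmgcs1), 1.63 ± 0.26 (Msmo1) and 0.96 ± 0.12 (Srebf2), within the range of the list, and the letters alone do not show binding.

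Genes of neuronal excitability were mostly higher in replicate 1. Of 30 voltage-gated channel genes above background on all arrays (31 listed), 23 lay above all other arrays, 8 of them by at least 1 unit, and none below. Among all units 28.8% lay above, 2.60% by at least 1 unit, and 27.7% below. The median difference of the channel genes was 0.61. Kcna1, a potassium channel that limits repetitive firing, stood at 2.42 and 2.51 in replicate 1, against 0.02 to 0.68 with a median of 0.30, a difference of 2.16 ± 0.12. Kcnj2, an inward rectifier outside this list, was above background on both replicate 1 arrays and on none of the other 6, which gives at least 3.20-fold.

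Receptors for both main transmitters followed the same direction. All 18 listed genes of GABA receptors and chloride transport were higher in replicate 1, 15 of them above all other arrays, where 28.8% of all units lay. Their median difference was 0.82. Gabbr2, a subunit of the metabotropic GABA receptor, had the largest, 1.36 ± 0.16, and Slc12a5, the chloride exporter that makes GABA inhibitory as neurons mature, stood at 6.65 and 6.75, against 5.56 to 5.93 with a median of 5.80. Among 34 glutamate receptor and postsynaptic genes 24 lay above and 1 below all others, with a median of 0.57. Grin1, the obligatory NMDA receptor subunit, differed by 1.41 ± 0.11 and Shank3, a postsynaptic scaffold, by 1.36 ± 0.10. Grin2c was the member below, at -3.08 and -2.94 in replicate 1, against -2.12 to -1.19.

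At the presynaptic side, 23 of 26 genes lay above and 1 below all other arrays, beside 28.8% and 27.7% of all units. Their median difference was 0.57. Unc13a, which primes vesicles for release, differed by 1.49 ± 0.16, and Syp, the vesicle protein synaptophysin, stood at 6.36 and 6.51 in replicate 1, against 4.91 to 5.45 with a median of 5.25. Cplx2, a regulator of fusion, was the one below, at -0.73 ± 0.23. Members of these lists share neurons as their source, so their counts are not independent.

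**Figure D4:**
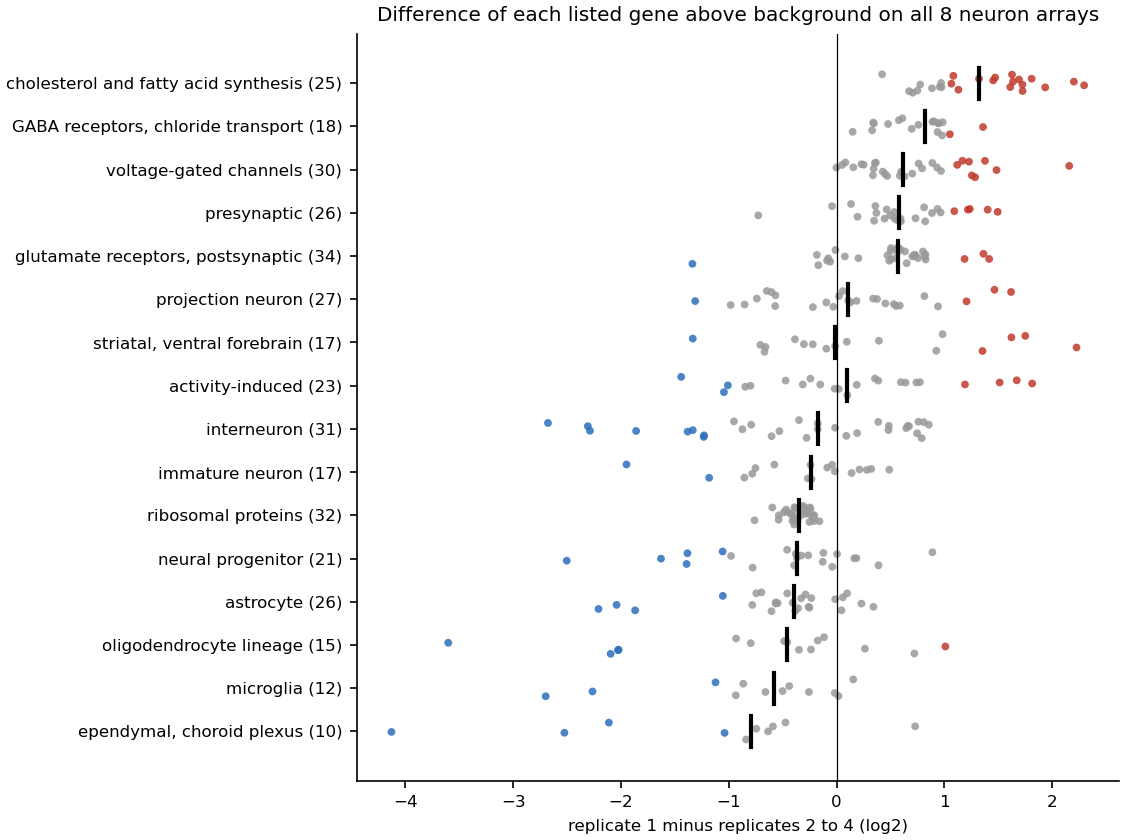
Difference of each listed gene between replicate 1 and replicates 2 to 4 in log2 units, for 16 lists, with the number of genes above background on all 8 arrays in brackets. Black bars are medians, red and blue points are genes past the threshold of 1 unit that lie above or below all 6 other arrays. Synaptic, channel and sterol genes lie to the right of 0 and most glial and choroid plexus genes to the left.

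Transmitter identity did not move as a block. Both vesicular glutamate carriers were higher in replicate 1, Slc17a6 by 1.62 ± 0.12 and Slc17a7 by 1.46 ± 0.12. Slc17a7 stood at 0.67 and 0.83, against -0.97 to -0.49 with a median of -0.71. Of 27 projection neuron genes, however, 11 lay above and 8 below all other arrays, shares not far from the 28.8% and 27.7% of all units, and the layer factor Etv1 differed by -1.31 ± 0.11. Of 17 striatal and ventral forebrain genes 7 lay above and 5 below all others, with a median of -0.01. Among them was Ppp1r1b, the dopamine-regulated phosphatase inhibitor DARPP-32, which stood at 2.77 and 2.70, against 0.05 to 0.78 with a median of 0.60, a difference of 2.23 ± 0.13. Penk, the enkephalin precursor, was 1.75 ± 0.09 higher, and the adenosine receptor Adora2a 1.35 ± 0.14. The transcription factors Ebf1, Zic1, Meis2 and Six3 were lower, by differences of -1.24 ± 0.16, -0.71 ± 0.21, -0.67 ± 0.07 and -0.66 ± 0.07.

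Interneuron genes went both ways. Higher in replicate 1, beside Slc32a1 and Gad2, were the peptide Cort at 0.81 ± 0.18, the GABA-synthesizing enzyme Gad1 at 0.39 ± 0.10 and the peptide Sst at 0.48 ± 0.14. The peptide Npy was lower, at -0.53 ± 0.16, and the calcium-binding proteins Calb2 and Pvalb, the receptor Htr3a and the peptide Tac1 overlapped the other arrays, with -0.35 to -0.01. Several transcription factors of these cells were lower, whereas Satb1 was higher by 0.48 ± 0.09 and Lhx6 overlapped, at 0.09 ± 0.08. Dlx1 stood at 1.65 and 0.99 in replicate 1, against 3.52 to 3.74 with a median of 3.62, a difference of -2.31 ± 0.14. Nkx2-1, which specifies cells of the medial ganglionic eminence, differed by -2.29 ± 0.19, Dlx2 by -1.86 ± 0.08 and Dlx5 by -1.38 ± 0.08. Of 31 genes in the list, 12 lay above and 13 below all other arrays, beside 28.8% and 27.7% of all units. By the full threshold 8 were lower, where 4.20% of all units were, and 0 higher. The median difference was -0.17. The largest value, -2.68 ± 0.12 for Sp8, holds for its brightest probe only, since its second probe gave 0.28 and the mean over both -1.20.

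Of 17 genes of immature neurons 7 lay below and 5 above all other arrays, beside 27.7% and 28.8% of all units. Their median was -0.23, or -0.08 within control arrays. Igfbpl1, a marker of newborn neurons, stood at -0.08 and 0.22 in replicate 1, against 1.78 to 2.27 with a median of 2.06, and Nrep differed by -1.18 ± 0.10. The adhesion molecule Ncam1, the neuronal tubulin Tubb3 and the growth cone protein Gap43 were higher, by 0.49 ± 0.08, 0.32 ± 0.08 and 0.28 ± 0.10. Of 21 progenitor genes 13 lay below and 2 above all others. Hopx, found in radial glia, stood at -0.78 and -0.40, against 1.64 to 2.05, a difference of -2.50 ± 0.14. Pax6 differed by -1.63 ± 0.10, or -0.71 as the mean over its probes, and Dcx by -0.86 ± 0.08, or -0.28 over its probes. Nes, the progenitor filament nestin, went the other way, at 0.89 ± 0.21.

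Markers of glia and other non-neuronal cells differed in both directions, with more of them lower in replicate 1. In such bulk samples fewer cells of a type and less RNA per cell cannot be told apart. Bcas1, found in oligodendrocytes as they begin to myelinate, stood at -2.48 on the Klotho and -2.15 on the control array of replicate 1, against 0.79 to 1.58 with a median of 1.40, a difference of -3.60 ± 0.18. Mag, a myelin protein, differed by -2.03 ± 0.24. Fa2h and Enpp6, enzymes of the same lineage, were above background on no replicate 1 array and on all 6 others, at least 9.62-fold and 8.41-fold lower in replicate 1. The precursor marker Cspg4 and the myelin protein Mog were higher by 1.01 ± 0.26 and 0.72 ± 0.15, and Olig2, shared by the whole lineage, differed by -0.24 ± 0.13. Of 15 lineage genes 8 lay below and 2 above all others, beside 27.7% and 28.8% of all units. The mean level of the 15 was 0.19 and 0.28 in replicate 1, against 0.79 to 1.23.

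Several microglial genes were lower in replicate 1. Tyrobp, a signalling adaptor of microglia, stood at -4.40 and -3.89 in replicate 1, against -2.01 to -1.13 with a median of -1.31, where the 8 astrocyte arrays had a median of 3.60. C1qa, a complement subunit made by microglia, differed by -2.26 ± 0.38, or by -1.39 under normexp correction. The receptor Trem2 was above background on 1 replicate 1 array and on all 6 others, at -4.97 and -3.72, against -1.42 to -0.61. Of the 22 listed microglial genes 12 were above background on all 8 arrays. In replicate 1, 7 of them lay below all 6 other arrays and 0 above, beside 27.7% and 28.8% of all units. Siglech, Itgam and Cd68 overlapped the other arrays, with differences of 0.02 ± 0.08, 0.15 ± 0.08 and -0.02 ± 0.10. The mean level of the 12 was -0.96 and -0.74 in replicate 1, against -0.46 to 0.15. Their median difference was -0.97 within Klotho and -0.37 within control arrays. The markers Tmem119 and P2ry12 were above background on 3 and 1 of the 8 arrays.

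Among the listed astrocyte genes, Gfap, Id4 and Gli3 differed most. Gfap, the astrocyte filament, stood at -1.39 and -1.30 in replicate 1, against 0.49 to 1.12 with a median of 0.94, and Id4 and Gli3 differed by -2.04 ± 0.09 and -1.87 ± 0.11. The glutamate transporter Slc1a3 differed by -1.06 ± 0.09. Aldh1l1, Aqp4 and Slc1a2 differed by -0.25 ± 0.12, -0.23 ± 0.09 and -0.01 ± 0.12. Over 26 genes, 16 lay below and 1 above all others, and the mean level was 2.31 and 2.51, against 2.86 to 3.14. Of 8 endothelial and mural genes 4 lay below and 2 above, with Pdgfrb, a pericyte receptor, at -2.72 ± 0.10 and the endothelial Egfl7 at 0.48 ± 0.08. Among 10 meningeal fibroblast genes 4 lay below and 2 above, and among all units 27.7% and 28.8%. The part of these cell types in the other differences was not tested.

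Among genes with a symbol above background on all 8 arrays, the largest difference in either direction was that of Ttr, transthyretin, which choroid plexus secretes. It stood at -4.66 on the Klotho and -1.88 on the control array of replicate 1, against -0.18 to 1.71 with a median of 0.90, a difference of -4.13 ± 0.60. The 2 replicate 1 arrays were themselves far apart. Otx2, a factor of choroid plexus, differed by -2.11 ± 0.16 and Dynlrb2, a dynein chain of ciliated cells, by -2.53 ± 0.09. Of 10 ependymal and choroid plexus genes, 9 lay below all other arrays, where 27.7% of all units did, and Folr1 was 0.73 ± 0.15 higher. Hbb-y, an embryonic globin, was above background on no replicate 1 array and on all 6 others, at least 13.5-fold lower, and the embryonic Hba-x, at -7.28 and -8.08 against -5.63 to -4.04, was below background on the same 2 arrays. The adult globin genes Hba-a1 and Hba-a2 differed by 0.36 and 0.37 within control arrays and by 0.11 and 0.13 within Klotho arrays.

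Several metabolic genes were among the largest lower values. Txnip, a brake on glucose uptake whose expression follows glucose, stood at 0.22 and 0.21 in replicate 1, against 3.07 to 3.67 with a median of 3.52, a difference of -3.27 ± 0.14. Angptl4, an inhibitor of lipoprotein lipase, stood at -2.04 and -1.47, against 0.98 to 2.45 with a median of 2.06. Cox8b, a tissue-restricted subunit of cytochrome oxidase, differed by -3.81 ± 0.10 and Naaa, a lysosomal amidase, by -2.96 ± 0.11. Pdk4, which blocks pyruvate entry into mitochondria, differed by -3.26 ± 1.71, a value raised by 1 spot at 6.27 on the control array of replicate 2, and without that array the difference was -2.11. Pter likewise rested on the control array of replicate 4, at 6.92, and differed by -1.69 without it.

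Other genes named for the size of their difference were spread over functions. Higher in replicate 1 were the peptide genes Adcyap1 (PACAP) and Tac2 (neurokinin B), by 1.99 ± 0.10 and 1.99 ± 0.12, Hapln1, a link protein of the matrix around neurons, by 2.13 ± 0.15, and the receptor Mas1, by 2.10 ± 0.09. Strip2, Col6a1, Oca2, Lgi2, Pcdh20 and Actn2 followed with 1.82 to 2.05. Lower were Prrx2, Gem, Traf1, Tgif1, Plxnb3, Glycam1 and Ogn, with -3.23 to -2.86. Under normexp correction Plxnb3, Glycam1 and Ogn differed by less, -1.96, -1.83 and -1.82. Sebox, Ghsr, Gpr52 and Hcrtr2 were above background in replicate 1 alone, at least 2.01-fold to 2.37-fold higher, and 9630013A20Rik and Apela in the other arrays alone, at least 6.94-fold and 5.93-fold lower in replicate 1.

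Genes induced by neuronal activity did not share a direction. Bdnf, a neurotrophin, stood at 0.06 and -0.01 in replicate 1, against -1.90 to -1.46 with a median of -1.63, and the secretory genes Vgf and Scg2 differed by 1.81 ± 0.14 and 1.51 ± 0.10. Fos stood at -2.13 and -2.05, against -1.35 to -0.40 with a median of -0.51, and Dusp1 and Btg2 differed by -1.05 ± 0.10 and -1.01 ± 0.16. Of 23 genes, 9 lay above and 6 below all other arrays, beside 28.8% and 27.7% of all units.

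Ribosomal protein genes were lower by small amounts. All 32 ribosomal protein genes were lower in replicate 1, 28 of them below all other arrays and 0 by the full threshold. Among all units 27.7% lay below and 28.8% above, and 4.20% were lower by the full threshold. The median of the ribosomal protein genes was -0.35, or -0.48 within Klotho and -0.21 within control arrays. Rpl5 had the largest, -0.76 ± 0.08, and Rpl3 the smallest, -0.16 ± 0.09. Of 24 glycolysis genes 13 lay above and 2 below all others, with a median of 0.25, from 0.97 ± 0.10 for the neuronal enolase Eno2 and 0.93 ± 0.09 for the glucose carrier Slc2a3 to -0.64 ± 0.10 for the hexokinase Hk2 and -0.70 ± 0.09 for the aldolase Aldoc. Of 33 respiratory chain genes 10 lay above and 2 below, a share above near the 28.8% of all units, with a median of 0.17.

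The arrays left after replicate 1 had been chosen on its levels were tested for differences by number. Among replicates 2, 3 and 4, limma's F-test with Benjamini-Hochberg adjustment called 0 of 29922 units, with 1253 (4.19%) below an unadjusted p of 0.05. With so few arrays per number the test is weak, and 0 calls do not show that the numbers are alike. Even Akr1c6, with an F of 82.1, had an adjusted p of 0.983 by limma. With deviations taken among these arrays alone, Klotho and control arrays of the same number correlated with r = -0.06, 0.07 and 0.01. Over all 8 arrays the r were 0.20, 0.54 and 0.45, and 0.80 for replicate 1, which was chosen on these levels. On that basis unlike numbers among replicates 2 to 4 also had r of 0.25 to 0.54. The genes with the smallest p included Ttr, at 1.05, -0.18 and 0.74 on the Klotho and 1.71, 0.14 and 1.70 on the control arrays of replicates 2, 3 and 4, and the microglial receptor Cx3cr1, at -2.96, -2.16 and -2.12 and at -3.30, -2.43 and -2.18. For both, the same number was lowest under either treatment, with an adjusted p of 0.983 by limma. The F-test ranks first the genes that differ by number alike under both treatments, so this agreement follows from how they were named.

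The 8 astrocyte arrays gave no counterpart. Their replicate 1 arrays differed from the others with r = 0.01 to the neuron difference across 22537 units, and the arrays of replicates 2, 3 and 4 had r of -0.09, 0.06 and 0.001. For 6 astrocyte samples the deposited value table holds the values of another sample's array, so their sample labels are uncertain, whereas each neuron column holds its own array.

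Setting replicate 1 aside bears on the comparison the study was designed for. In replicates 2 to 4 alone, limma called 14 of 29922 units (0.0468%) lower with Klotho and 0 higher at an adjusted p of 0.05, with 6525 (21.8%) below an unadjusted 0.05. A replicate block on the same arrays ended every call (0 units, smallest adjusted p = 0.0958). With all 4 replicates and no term for replicate limma called 35 of 28857 (0.121%), all lower, of which 10 were among the 14. Below an unadjusted 0.05 were 1189 (4.12%). The background filter then covers replicate 1 as well, so 4921504E06Rik and Gm5177, among the 14, were not tested in that fit. The median SE of the Klotho effect was 0.106 without replicate 1, 0.172 with it and 0.103 with it and a replicate block, where 21 units (0.0728%) were called, 18 of them among the 35, and 3545 (12.3%) were below an unadjusted 0.05.

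Most named genes with a Klotho effect in replicates 2 to 4 are known as liver products, and replicate 1 had values of the same sign. Alb, serum albumin, stood at -6.32, -6.13 and -6.78 on the Klotho arrays of replicates 2 to 4, against -0.99, 0.64 and 0.13 on the control arrays (adjusted p = 0.0401, limma). In replicate 1 it stood at -6.20 with Klotho, against 0.94 in the control. It was above background on no Klotho array, which gives at least 42.5-fold lower with Klotho in replicates 2 to 4 and at least 93.9-fold in replicate 1. Ahsg, Mup18, Mup17 and Fabp1, also liver products, likewise had only bounds, from at least 5.46-fold (Fabp1) to at least 21.4-fold (Ahsg) in replicates 2 to 4 and from 9.92-fold to 43.5-fold in replicate 1.

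Serpina1a, Serpina1c and Serpina1e encode antitrypsins of the liver and are near-identical copies whose probes may share signal. They were above background on all arrays. Serpina1a stood at -5.00, -4.96 and -4.71 on the Klotho arrays of replicates 2 to 4, against -0.46, 0.99 and 0.79 on the control arrays, and at -5.01 in replicate 1 with Klotho, against 1.51 in the control. The Klotho effects of the 3 genes were -5.34, -5.11 and -4.79 in replicates 2 to 4 and -6.52, -6.13 and -5.83 in replicate 1. For all 8 of these liver genes the difference of the effect between the 2 sides had an adjusted p of 0.545 to 0.746. Of 39 adult liver genes on the array 6 were called, and over the 14 above background on all 8 arrays the mean level was -2.77 on the Klotho array of replicate 1 and -2.50 to -2.41 on the other Klotho arrays, against -0.77 on its control array and -1.32 to -0.81 on the other control arrays. That mean includes the 3 antitrypsins, and its other members were not alike. In replicates 2 to 4 Hpx differed by -1.42 and Fbp1 by -1.34 with Klotho. Rbp4 differed by -0.15, Tat by -0.03, Apoa2 by 0.07, Apoc3 by 0.18 and Cyp3a11 by 0.22. Among liver genes outside that mean, Fgb differed with Klotho by -0.23 in replicate 1 and -3.04 in replicates 2 to 4. Plg differed by -3.82 and -0.99. Both were above background on 6 of the 8 arrays. The source of the liver gene signal was not tested. 4921504E06Rik and Gm5177 were called as well, but were above background only on the 3 control arrays of replicates 2 to 4, with at least 1.61-fold for 4921504E06Rik.

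These counts depend strongly on single arrays and settings. Without control replicate 2 the count was 37, all lower with Klotho, and without control replicate 3 or 4 it was 0. Without Klotho replicate 2 it was 3 and without Klotho replicate 3 it was 1, all of them higher, and without Klotho replicate 4 it was 18 higher and 16 lower. The deposited value table gave 1539 higher and 1624 lower, and the unfiltered probes 7042 higher and 629 lower.

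A Klotho effect that differed between replicate 1 and the rest was called for 26 of 29136 units, 23 higher (0.0789%) and 3 lower (0.0103%) in replicate 1, with 3660 (12.6%) below an unadjusted 0.05. Each such call sets 1 Klotho and 1 control array against the other 6, and a spread for the lone arrays is assumed from those. Nek5, a kinase of the NIMA family, stood at -2.35 on the Klotho and -6.07 on the control array of replicate 1, against -3.40, -3.37 and -3.25 on the other Klotho and -2.95, -3.20 and -3.01 on the other control arrays. The difference of effects was 4.01 ± 0.19 (adjusted p = 0.0108, limma). Usp18, an interferon-induced protease, stood at -2.57 and -6.08, against -4.39 to -4.30 on the other Klotho and -4.22 to -3.74 on the other control arrays, with a difference of 3.89 ± 0.26 (adjusted p = 0.0156). Both genes were above background on every array but the control of replicate 1, so their difference rests on a value that is only a bound.

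In Nrg1, a growth factor of the neuregulin family, and in Serpina3h the control array of replicate 1 was the one apart. Nrg1 stood there at -0.84, against 0.97 on its Klotho array and 1.08 to 1.26 on the other 6 (adjusted p = 0.0169). Cryaa, a lens crystallin, and Irx3 had instead a Klotho array of replicate 1 above the rest, with Cryaa at -1.05, against -4.47 on its control array and -5.04 to -4.28 on the other 6 (adjusted p = 0.0374). Lipe, Fbn1 and H2bc3 were called as well. The 3 units with a lower effect in replicate 1 are probes without a symbol here. With a replicate block limma called 0 units (smallest adjusted p = 0.180, 3126 below an unadjusted 0.05), and without any 1 array of replicates 2 to 4 it called 0 to 9. For the 3 division markers the difference of effects was 0.002 ± 0.13 (Gad2), 0.19 ± 0.14 (Slc32a1) and 0.03 ± 0.12 (Fgfr1). Their levels are among those that chose replicate 1, and 1 array per treatment cannot show that the effects were equal.

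**Figure D5:**
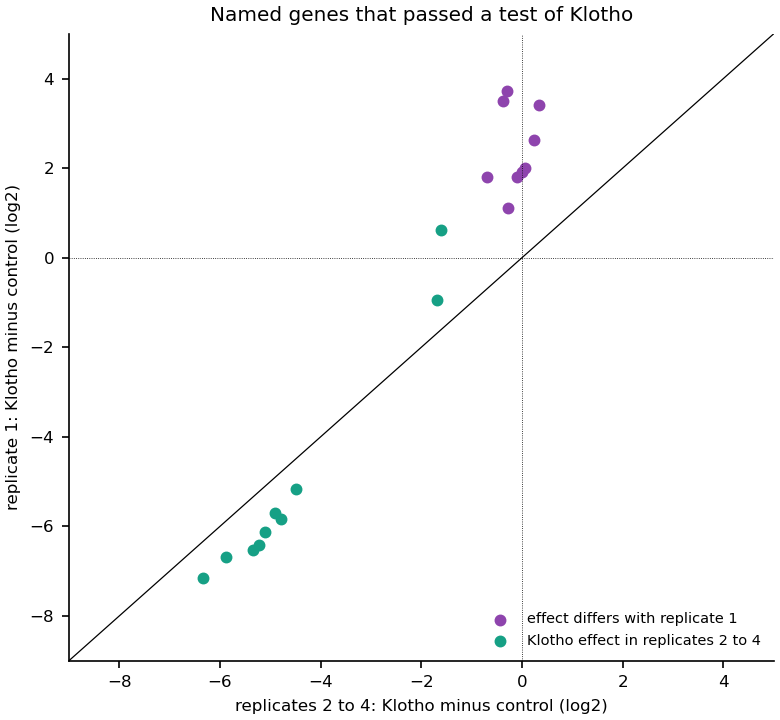
Klotho minus control in log2 units, in replicate 1 on the vertical axis and in replicates 2 to 4 on the horizontal axis, for the named genes that passed a test. Green points, called in replicates 2 to 4, lie a little below the diagonal of equal effects for the 8 liver genes and above it for 4921504E06Rik and Gm5177, and purple points, whose effect differed between the sides, lie above it.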

How the data were processed

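Total RNA was hybridised to 1-colour Agilent arrays. Per the file headers, the authors' scanner software, Agilent Feature Extraction 12.0.3.1, made the deposited intensity values (background-subtracted and detrended within each array) and the flags per spot. Each array held 62976 spots, 3671 of them controls, and 0 were saturated. The number of arrays limits the precision. The deposited value table holds scores whose scale and centring are not stated. From the values, each column has mean 0 and SD 1 and matched its own neuron array within 0.00502. Its columns served as an alternative.

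Outlier spots were dropped, spots of a probe averaged, and log2 of the deposited processed intensity was centred on each array's 75th percentile. Of 55681 probes, 28331 (50.9%) received a symbol through RefSeq accessions, and the brightest probe stood for a gene. Probes without a symbol stayed in as units. A spot counts as above background by the scanner's flag, and a group of arrays had to be above on all its arrays on at least 1 side. Where one side was wholly below, the fold is a bound, set against the higher of the dim probe and the lowest signal flagged above background on each array. Fits used limma 3.58.1 in R 4.3.3 with Benjamini-Hochberg adjustment over all units and were tested on simulated data.

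Replicate 1 differences come from a fit with treatment as a term. Their error is the SE of that fit, and they passed the threshold at 1 log2 unit with both arrays outside the range of the other 6. The members, lists and tests were chosen with earlier results of these data known. Named are the 3 markers, up to 15 genes per direction by size, up to 5 bounds per direction, the leading and defining members of each list, up to 10 genes per test by p, and 5 genes most like each marker, where Gad2 was added after its values were seen. Other genes named beside these were also chosen after their values were seen.

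Replicate numbers were checked for pairing. Over all 8 arrays the Klotho and control arrays of a number had deviations with r of 0.80, 0.20, 0.54 and 0.45, all over 0.1, but among replicates 2 to 4 alone with r of -0.06, 0.07 and 0.01, so these numbers pair the samples only through replicate 1. The fit with a replicate block is given beside each Klotho test. The scanner files here hold no mean signal, so normexp used median signals with an offset of 50, an alternative chosen after seeing the data. Astrocyte arrays were used for levels and, by replicate number, for correlations with the neuron difference. Some named genes are not reported here.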

Additional observations from a re-analysis of the deposited data

Results flagged for a closer look

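Within each treatment the replicate 1 array stood apart from the other 3 for many of the 43 named genes, by a gap that Dixon's test takes as an outlier. This held for 32 genes among the Klotho arrays and for 21 among the control arrays. Most of these genes were named for that difference, so the outcome was largely set beforehand. The counts describe the choice and are no test of the division. Single groups are also picked out by chance at the test's own error rate.

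Among control arrays, replicate 4 stood apart for Pter, at 6.92, where the other 3 control arrays were far lower. The control array of replicate 1 stood apart in 2 measures of quality, with 65.0% of spots well above background and an SD of 0.114 on the log2 scale between replicate spots. Their part in the differences of replicate 1 was not tested.

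The effect of Klotho differed between replicate 1 and replicates 2 to 4 by limma's interaction test for 23 units higher and 3 lower in replicate 1. These calls rest on 1 Klotho and 1 control array.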

How the results depend on the processing

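Of the differences between replicate 1 and the other neuron arrays, 860 units were higher and 1340 lower. They numbered 394 and 635 under normexp, 1491 and 2191 in control arrays alone, and 1513 higher in Klotho arrays alone. Leaving out 1 array gave 820 to 1496 higher and 1296 to 1711 lower. The 14 units with a Klotho effect in replicates 2 to 4, all lower, numbered 24 with median scaling, 6 with normexp, 3163 in the value table (1539 higher, 1624 lower), 3 when restricted to units above background on all arrays, 7671 with no filter (7042 higher, 629 lower), and 35 with all 8 arrays. With a replicate block limma called 0 in replicates 2 to 4 (smallest adjusted p = 0.0958, 5402 below an unadjusted 0.05), and leaving out 1 array gave 0 to 37, with 0 lower without Klotho replicate 2 or 3 or control replicate 3 or 4. The 26 units whose Klotho effect differed numbered 70 with normexp, 101 with no filter and 0 with a replicate block, and 0 to 9 when 1 array was left out. The causes were not tested. The F-test among replicates 2 to 4 called 0 in every setting run. Of 197 named genes and list members, the replicate 1 difference turned its sign for 1 under the mean over probes, which was Uty, and for 1 in control arrays alone, which was Eif2s3y. Dim probes limit what can be said of genes near background.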

Other observations

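Further gene groups differed between replicate 1 and the other neuron arrays. Of 17 interferon-induced genes above background on all 8 arrays, 9 lay below and 3 above all 6 other arrays, with a mean level of -1.51 on the Klotho and -1.36 on the control array of replicate 1, against -1.04 to -0.90 on the others. Of 16 genes of the p53 response 9 lay below and 2 above, and of 16 targets of the oxidative stress factor Nrf2 9 lay below and 1 above. In the list of FGF and ERK signalling genes, to which Fgfr1 belongs, 12 of 23 lay below and 2 above. Heat shock genes went the other way, with 8 of 13 above and 2 below. For comparison, 28.8% of all units lay above and 27.7% below. No test was made of these lists.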
